A study of Mus musculus with 18 samples.

Results

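The genes described here are 43 members of the cell cycle and DNA replication machinery, chosen by symbol as 18 genes of S phase and its onset and 25 genes of mitosis. All 43 were among the 24493 genes of the deposited table. All 43 also had a mean of at least 1 TPM (transcript level scaled to a fixed total per library) over the 18 libraries, so each was tested, with 13422 genes in all. RNA had been sequenced from untreated tumor cells sorted out of subcutaneous implants of the C57BL/6 mouse pancreatic tumor lines 6419c5 and 6694c2. Each line had knockout clone 1 (KO1) and knockout clone 2 (KO2), both made for Kdm3a, and a wild-type group (WT), with 3 libraries in each of the 6 groups. The Kdm3a enzyme removes methyl groups from lysine 9 of histone H3. The 3 libraries of a knockout group measure 1 clone. The labels do not say whether they came from separate animals, so p-values cover the spread between these libraries, which may be technical. Neither the marker used for the sort nor the way of knocking out the gene is given in the sources used here. The columns letter the clones A and B where the titles number them, and A is taken here for KO1 and B for KO2, a choice that bears on names alone. The Kdm3a transcript ranged over 21.6 to 24.6 TPM in KO1, 12.3 to 18.8 TPM in KO2 and 24.1 to 38.2 TPM in WT of 6419c5. In 6694c2 it ranged over 26.2 to 29.8 TPM in KO1, 25.2 to 30.2 TPM in KO2 and 38.9 to 67.6 TPM in WT.

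A dividing cell switches on these genes in waves. At the border of G1 and S phase, E2F factors, freed from the retinoblastoma protein, drive the genes that license origins, build the replication fork and make deoxynucleotides. Later, B-Myb (Mybl2) and FoxM1 act on the mitosis genes through the MuvB complex, which binds promoters at a CHR element (TTTGAA) often flanked by CCAAT boxes of the factor NF-Y. In resting cells the same MuvB core, bound to a retinoblastoma relative, keeps the mitosis genes off. In pancreatic tumors, as in others, the summed level of such genes is widely used as a sign of how many cells are cycling.

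TTTGAA and CCAAT were common in the promoters of the mitosis members, and 4 promoters are shown because these members carry the differences between knockout clones described below. RefSeq promoter sequence (GRCm38.p6, 250 bases before to 50 after the annotated start) was at hand for 35 of the 43 members. TTTGAA, on either strand, was present for 15 of 20 mitosis members and 1 of 15 S phase members, against 17.9% of all 32851 promoter entries. CCAAT was present for 18 of 20 mitosis members and 8 of 15 S phase members, against 37.4% of all entries. Any of the E2F words TTTCCCGC, TTTCGCGC, TTTGCCGC and TTTGGCGC was present for 1 of 20 mitosis members and 6 of 15 S phase members, against 2.26% of all entries. A member counts here if any of its entries holds the letters, and a match is a description of the sequence, not of binding. The 150 bases before the start are given 5′ to 3′ for Top2a (chr11:99024190-99024339, minus strand), which untangles DNA, Cdk1 (chr10:69352913-69353062, minus strand), the kinase that starts mitosis, Ube2c (chr2:164769779-164769928, plus strand), which marks mitotic cyclins for destruction, and Mcm6 (chr1:128359706-128359855, minus strand), a subunit of the replicative helicase. Capitals mark every match to the CCAAT box, the CHR letters TTTGAA or an E2F word on either strand. In Mcm6 an E2F word on the plus strand overlaps one on the minus strand.
Top2a: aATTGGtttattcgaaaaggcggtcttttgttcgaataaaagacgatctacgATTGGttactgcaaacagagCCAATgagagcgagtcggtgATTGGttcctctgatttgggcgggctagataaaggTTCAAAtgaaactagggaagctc
Cdk1: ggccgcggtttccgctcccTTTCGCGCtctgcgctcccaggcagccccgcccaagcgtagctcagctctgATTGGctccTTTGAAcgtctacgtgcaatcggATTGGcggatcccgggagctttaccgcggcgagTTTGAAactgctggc
Ube2c: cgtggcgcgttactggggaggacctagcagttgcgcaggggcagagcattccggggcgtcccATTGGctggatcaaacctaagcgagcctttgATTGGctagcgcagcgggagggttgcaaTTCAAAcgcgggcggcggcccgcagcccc
Mcm6: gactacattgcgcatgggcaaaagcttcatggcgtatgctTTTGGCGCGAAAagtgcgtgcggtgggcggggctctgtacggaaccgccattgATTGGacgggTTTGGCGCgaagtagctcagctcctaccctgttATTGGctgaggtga

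The libraries differed in the level of transcripts that mark other cell types. TPM carry no read numbers, so the depth is unknown. Per library 12213 to 13590 genes reached 1 TPM, and libraries of a group correlated across genes at 0.932 to 0.989. The gene Mir6236 alone took 6.04% to 17.4% of the TPM of a library, which lowers the TPM of all others. Its share was 8.45% ± 1.24 in KO1, 12.7% ± 4.50 in KO2 and 11.6% ± 4.38 in WT of 6419c5 (SD, n = 3 each). In 6694c2 it was 6.49% ± 0.680, 7.82% ± 1.60 and 13.0% ± 4.39, and its part in the differences below was not tested on its own. The macrophage index, the mean log2(TPM + 1) of 10 macrophage genes, was 8.17 ± 1.01 in KO1, 3.997 ± 0.409 in KO2 and 7.10 ± 1.40 in WT of 6419c5 (SD, n = 3 each). In 6694c2 it was 7.75 ± 0.292 in KO1, 5.46 ± 1.72 in KO2 and 4.87 ± 1.64 in WT. None of the 10 genes was at 0 throughout a group, and their summed level spanned 3459 to 6477 TPM in 6694c2 KO1, 435 to 3556 TPM in 6694c2 KO2 and 145 to 1778 TPM in 6694c2 WT. Fibroblast markers gave the same order of groups within each line, with an index of 5.09 ± 0.163 in KO1, 3.36 ± 1.21 in KO2 and 3.18 ± 0.358 in WT of 6694c2, and 4.82 ± 0.0393, 3.51 ± 0.186 and 3.83 ± 0.244 in KO1, KO2 and WT of 6419c5. The mean indices of fibroblast, neutrophil, T and NK cell and endothelial markers were highest in 6694c2 KO1, and that of macrophage markers in 6419c5 KO1. The endothelial lead rested on replicate 1 of 6694c2 KO1. Its index was 4.80, beside 2.12 and 2.05 in replicates 2 and 3 and 2.13 to 2.34 in 6419c5 KO1. None of the 10 epithelial and tumor markers was at 0 throughout a group, and their summed level was 5745 to 13391 TPM over the libraries. Some were near 0, as in 6694c2 KO2 Cldn4 had 0, 0 and 0.305 TPM and Epcam 1.12, 0.825 and 0.745 TPM. In each line 5 of the 10 were lower in the mean of the clones than in WT (limma adjusted p under 0.05). Of all genes tested 3.4% were lower in 6419c5 and 5.79% in 6694c2. An index of these markers carries such differences too. In earlier results 3 libraries were taken as apart from their groups: WT replicate 3 of 6419c5 (macrophage index 5.97, 6.65 and 8.66 in replicates 1, 2 and 3), KO2 replicate 3 of 6694c2 (4.45, 4.49 and 7.45) and KO1 replicate 1 of 6694c2 (endothelial index 4.80, 2.12 and 2.05). The macrophage index also varied within 6694c2 WT (4.90, 6.498 and 3.23) and 6419c5 KO1 (7.03, 8.94 and 8.54). Counts without the 3 are given where they move. In bulk RNA, fewer cycling cells and less of these transcripts in each cell cannot be told apart.

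By group mean the members were most often at their highest in 6694c2 KO2, and the mitosis members most often at their lowest in 6694c2 KO1. Pcna, the sliding clamp of the replication fork, had the highest level of the 43 with a mean of 148 TPM over the 18 libraries, and Ccne2, a G1/S cyclin, the lowest with 2.24 TPM. The mean of the 3 libraries was highest in 6694c2 KO2 for 23 members, in 6419c5 KO2 for 12, in 6419c5 WT for 6 and in 6694c2 WT for 2. It was lowest in 6694c2 KO1 for 28 members, 23 of them among the 25 mitosis genes and 5 among the 18 S phase genes. The lowest mean fell in 6419c5 KO2 for 7 members, all 7 of S phase, and in 6419c5 KO1 for 6. These counts were not made for all genes, whose level also differed between groups on this scale. The median of all genes tested was 0.18 for KO2 minus WT and -0.07 for KO1 minus KO2 in 6694c2, as differences of log2(TPM + 1). Summed over the 43 genes, the level was 1419, 1333 and 1330 TPM in the libraries of 6694c2 KO1, 2231, 2288 and 1832 TPM in KO2 and 1838, 1471 and 1735 TPM in WT. In 6419c5 it was 1778, 1346 and 1468 TPM in KO1, 1621, 1992 and 1720 TPM in KO2 and 1915, 1557 and 1731 TPM in WT. The KO1 and KO2 libraries of 6694c2 did not overlap in this sum, while in 6419c5 all 3 groups overlapped.

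**Figure D1:**
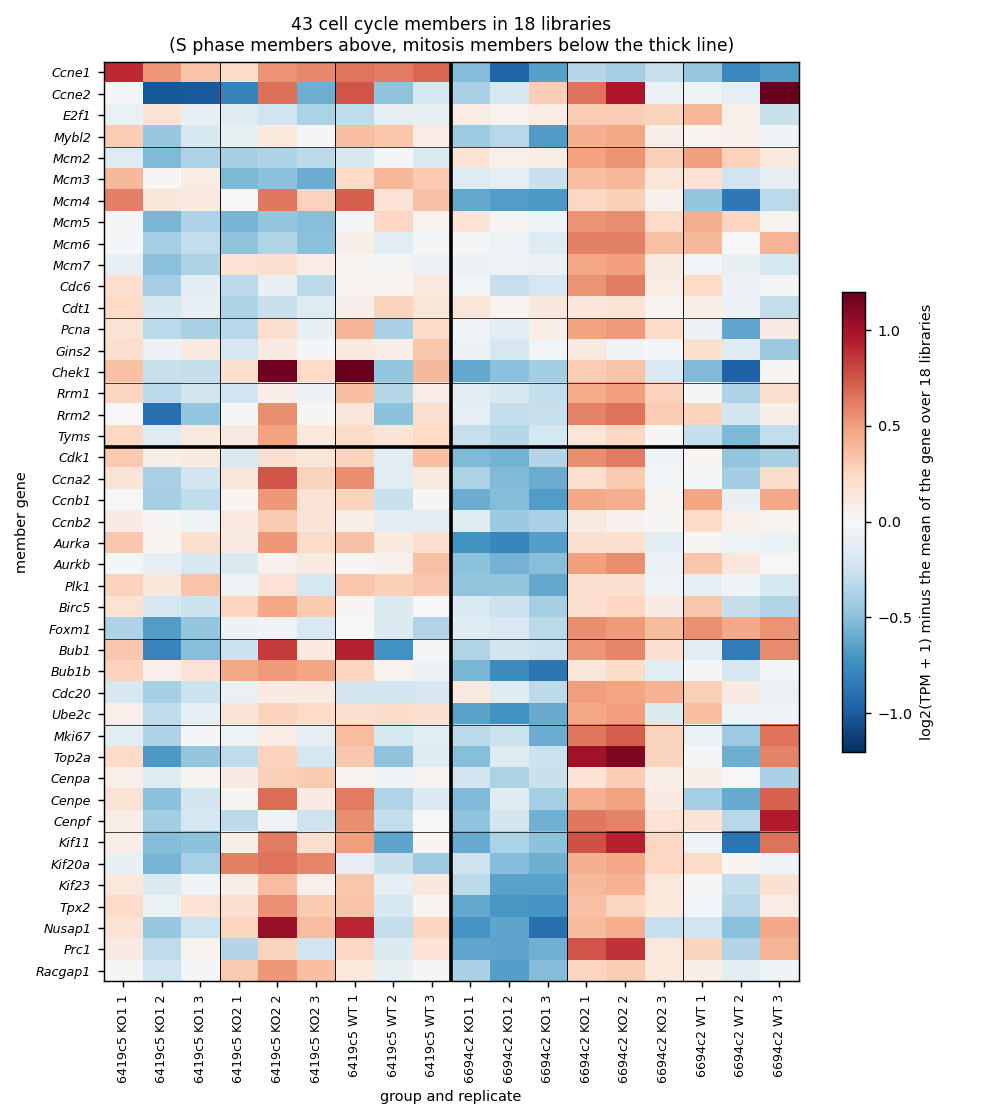
Each cell is the log2(TPM + 1) of a member gene (rows, S phase above the thick line and mitosis below it) minus its mean over the 18 libraries (columns, by group and replicate). Red is above and blue below the gene's own mean; the mitosis rows are mostly blue in all 3 libraries of 6694c2 KO1 and mostly red in replicates 1 and 2 of 6694c2 KO2.

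The clearest difference lay between the knockout clones of 6694c2. With KO1 set against KO2, 24 of the 43 members were lower and 0 higher (limma, Benjamini-Hochberg adjusted p under 0.05 over 13422 genes), where 5.27% of all genes tested were lower and 4.26% higher. The 24 were 18 of the 25 mitosis genes and 6 of the 18 S phase genes. All 43 differences were below 0, with a median of -0.70 for the members, -0.83 for the mitosis genes and -0.46 for the S phase genes, beside -0.07 for all genes tested. For 40 members, 25 of mitosis and 15 of S phase, every KO1 library lay below every KO2 library, against 25.1% of all genes. Fold changes are differences of log2(TPM + 1) throughout, a scale that understates changes of genes with low TPM.

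Among the spindle and cytokinesis genes the largest difference was that of Prc1, which bundles microtubules of the spindle midzone (chr7:80294450-80316259, plus strand, GENCODE M21 on GRCm38). Prc1 had 17.3, 17.1 and 17.8 TPM in the KO1 libraries, 46.7, 50.4 and 29.6 TPM in KO2 and 32.95, 21.1 and 36.3 TPM in WT. KO1 was tight and below every other library of the line, and KO2 replicate 3 stood well under its sister libraries. The difference of KO1 from KO2 was -1.20 log2 units (SE 0.23, adjusted p = 0.00559, limma). Tpx2, which recruits Aurora A to the spindle (-0.92), the kinesins Kif23 (-0.84) and Kif20a (-0.83) and Racgap1, a partner of Kif23 in the central spindle (-0.75), were also lower in KO1. Kif20a had 35.7, 29.6 and 28.2 TPM in KO1, 57.7, 58.9 and 51.1 TPM in KO2 and 50.4, 43.4 and 41.5 TPM in WT. Racgap1 had 44.2, 36.4 and 40.2 TPM in KO1, 69.6, 72.1 and 63.4 TPM in KO2 and 61.7, 53.3 and 55.9 TPM in WT. For both genes every KO1 library lay below every WT library and every WT library below every KO2 library. Kif11, the motor that separates spindle poles (-1.14, adjusted p = 0.0505), and Nusap1 (-0.93, adjusted p = 0.0803) did not pass in limma, although neither overlapped between the clones.

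The chromosome genes gave the same order of clones with wider spread. Top2a had 31.1, 39.9 and 37.2 TPM in KO1, 90.9, 98.1 and 54.05 TPM in KO2 and 43.8, 29.3 and 67.9 TPM in WT, a difference of KO1 from KO2 of -1.11 log2 units (SE 0.32, adjusted p = 0.0428, limma). Mki67, the proliferation antigen that coats mitotic chromosomes, had 23.6, 24.8 and 19.4 TPM in KO1, 46.7, 49.97 and 36.1 TPM in KO2 and 28.1, 21.8 and 47.4 TPM in WT. Its difference of KO1 from KO2 was -0.93 log2 units (SE 0.23, adjusted p = 0.0209, limma). The clones did not overlap for either gene, and WT overlapped with both, with replicate 2 low and replicate 3 high. The Top2a call was lost in 16 of 31 alternatives and that of Mki67 in 7 of 31, with adjusted p up to 0.728 and 0.481 over the alternatives. The centromere genes Cenpe (-0.70, adjusted p = 0.190) and Cenpf (-0.89, adjusted p = 0.0575) did not pass in limma, and Cenpa, the histone of the centromere, did (-0.48, adjusted p = 0.0160).

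Of the 9 mitotic cyclins, kinases and regulators, 7 were lower in KO1 than in KO2 of 6694c2. Cdk1 had 12.1, 11.7 and 13.7 TPM in KO1, 26.7, 28.1 and 17.1 TPM in KO2 and 18.1, 12.6 and 13.3 TPM in WT, and its difference of KO1 from KO2 was -0.86 log2 units (SE 0.19, adjusted p = 0.0124, limma). Its partner Ccnb1, cyclin B1, had 18.2, 19.3 and 17.2 TPM in KO1, 38.6, 38.3 and 28.6 TPM in KO2 and 39.3, 26.3 and 38.7 TPM in WT, a difference of KO1 from KO2 of -0.90 log2 units (SE 0.19, adjusted p = 0.00875, limma). Both had every KO1 library below every KO2 library. For Ccnb1 the WT libraries overlapped with KO2 alone, and for Cdk1 with both clones. Foxm1, the transcription factor of the G2 and mitosis genes (chr6:128362967-128376146, plus strand), had 30.4, 29.4 and 26.7 TPM in KO1, 50.1, 48.2 and 43.9 TPM in KO2 and 49.5, 46.5 and 49.1 TPM in WT. KO1 stood apart from both other groups, and the difference from KO2 was -0.70 log2 units (SE 0.10, adjusted p = 0.00117, limma). Aurka (-0.81), Aurkb (-0.85), Plk1 (-0.63) and Ccnb2 (-0.38) were lower too, and Ccna2, cyclin A2, did not pass (-0.66, adjusted p = 0.0621). In the checkpoint and anaphase group, 3 of 4 were lower. Ube2c had 58.6, 55.1 and 60.3 TPM in KO1, 127, 130.3 and 82.2 TPM in KO2 and 118, 88.7 and 88.6 TPM in WT (-0.92 for KO1 minus KO2).

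S phase genes differed less between these clones. Of the 8 licensing genes 5 were lower in KO1, namely Mcm4 (-0.85), Mcm6 (-0.60), Cdc6 (-0.59), Mcm3 (-0.48) and Mcm7 (-0.42). Mcm2 had 63.7, 59.4 and 60.6 TPM in KO1, 79.5, 83.03 and 69.6 TPM in KO2 and 80.5, 68.8 and 61.8 TPM in WT, and the clones did not differ past the threshold (-0.33, adjusted p = 0.0712 in limma). Mcm5 had 40.6, 36.5 and 34.6 TPM in KO1, 53.1, 53.8 and 42.8 TPM in KO2 and 49.2, 43.4 and 37.3 TPM in WT (-0.41, adjusted p = 0.0768 for KO1 minus KO2). For each of the pair, KO1 lay below KO2 in every library and WT overlapped with both. Rrm2, the regulated subunit of ribonucleotide reductase, had 59.4, 52.5 and 53.1 TPM in KO1, 97.7, 102 and 79.7 TPM in KO2 and 77.8, 54.9 and 67.7 TPM in WT (-0.74, adjusted p = 0.0587). Pcna had 140.2, 131 and 152 TPM in KO1, 202, 205 and 169 TPM in KO2 and 138, 93.4 and 155 TPM in WT (-0.44, adjusted p = 0.233). E2f1 had 14.8, 14.2 and 14.7 TPM in KO1, 17.3, 17.2 and 16.9 TPM in KO2 and 18.6, 14.5 and 11.3 TPM in WT (-0.22, adjusted p = 0.361). For all 3 every KO1 library lay below every KO2 library and WT overlapped with at least 1 clone, and none of the differences passed in limma. Cdt1, the licensing factor held in check by geminin, gave a difference near 0 (-0.01, SE 0.12), and Mybl2 was lower in KO1 (-0.80).

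**Figure D2:**
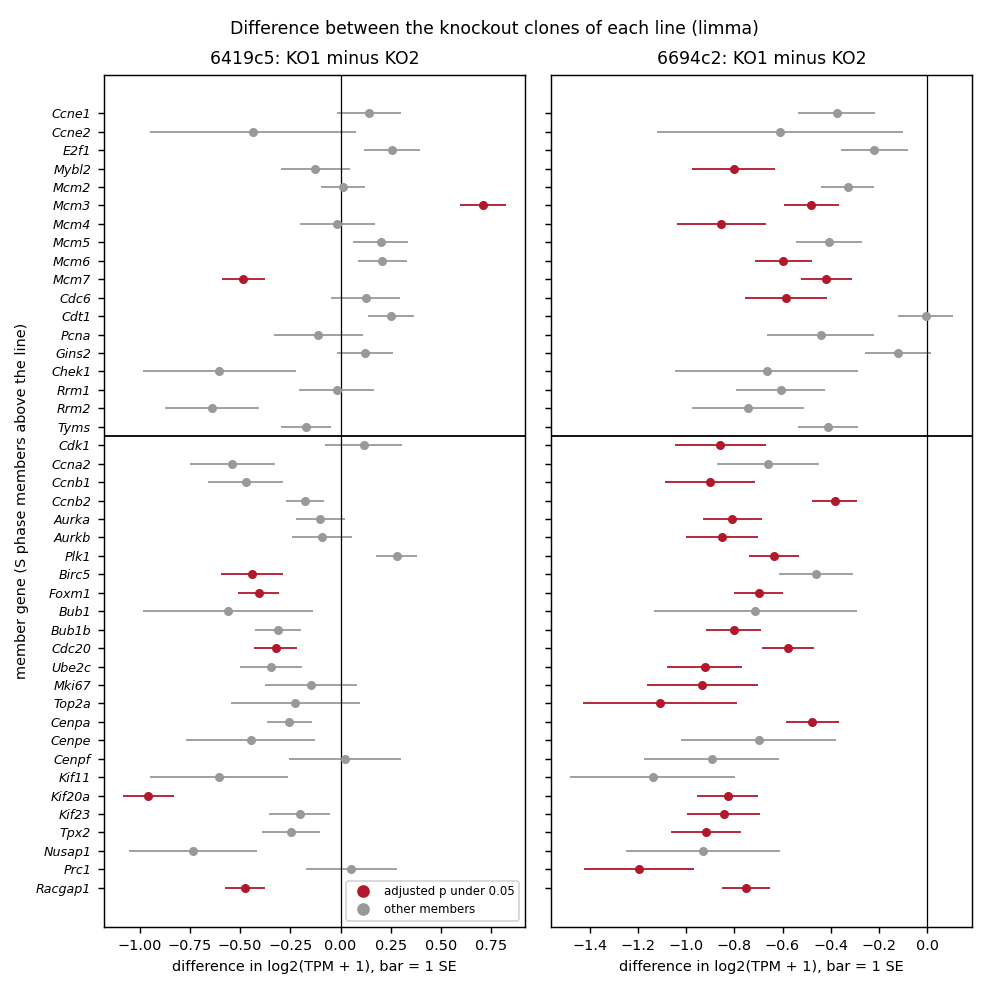
Difference of log2(TPM + 1) between KO1 and KO2 for each member in 6419c5 (left) and 6694c2 (right), with bars of 1 SE from limma and red points for an adjusted p under 0.05. In 6694c2 all 43 points lie below 0 and 24 are red; in 6419c5 the points lie on both sides of 0, with Mcm3 highest and Kif20a lowest.

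The size of the clone difference in 6694c2 was read beside the markers of other cell types. KO1 had the higher macrophage index (8.08, 7.52 and 7.66 in its libraries, against 4.45, 4.49 and 7.45 in KO2), and the macrophage genes differed by a median of 2.46 on the log2 scale. With the macrophage index as a covariate 11 members, all 11 of mitosis, remained lower in KO1, the median of the 43 was -0.40, and 1.33% of all genes were lower. With the fibroblast index as a covariate, an alternative chosen after seeing the data, limma called 0 members and 0.0298% of all genes lower. In that fit the median was -0.58, 21 of 43 members had an unadjusted p under 0.05, against 9.06% of all genes, and the smallest adjusted p was 0.128. KO2 replicate 3 was close to KO1 in macrophage and fibroblast markers but not in all others. Its macrophage index of 7.45 was next to the 7.52 to 8.08 of KO1. Its fibroblast index of 4.76 was next to the 4.97 to 5.27 of KO1. In neutrophil, T and NK cell and endothelial indices it lay between KO1 and its sister libraries. Its neutrophil index was 3.09, against 4.003 to 5.07 in KO1 and 2.64 and 2.55 in KO2 replicates 1 and 2. Its T and NK cell index was 1.85, against 2.19 to 2.497 in KO1, and its endothelial index 1.75, against 2.05 to 4.80. KO2 replicate 3 was above all 3 KO1 libraries for 41 of 43 members, including 25 of 25 mitosis genes, against 34.2% of all genes tested. It was also below both other KO2 libraries for 41 of 43 members, against 50.2% of all genes. The epithelial index, some of whose markers were lower in the knockouts, was 6.83 ± 0.138 in KO1, 6.71 ± 0.135 in KO2 and 7.50 ± 0.181 in WT. The summed epithelial level was 5745 to 6340 TPM in KO1, 6100 to 7790 TPM in KO2 and 6994 to 8877 TPM in WT. The count rested in part on KO2 replicates 1 and 2, without either of which 12 members were called. Those libraries lay close together, with macrophage indices of 4.45 and 4.49 and fibroblast indices of 2.73 and 2.60. The labels do not say whether they came from separate animals. Without the 3 libraries set apart the count was 24, of which 23 were shared. Of all genes called in this comparison 44.7% were higher in KO1, and 58.6% under median-of-ratios scaling, with 26 members lower.

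**Figure D3:**
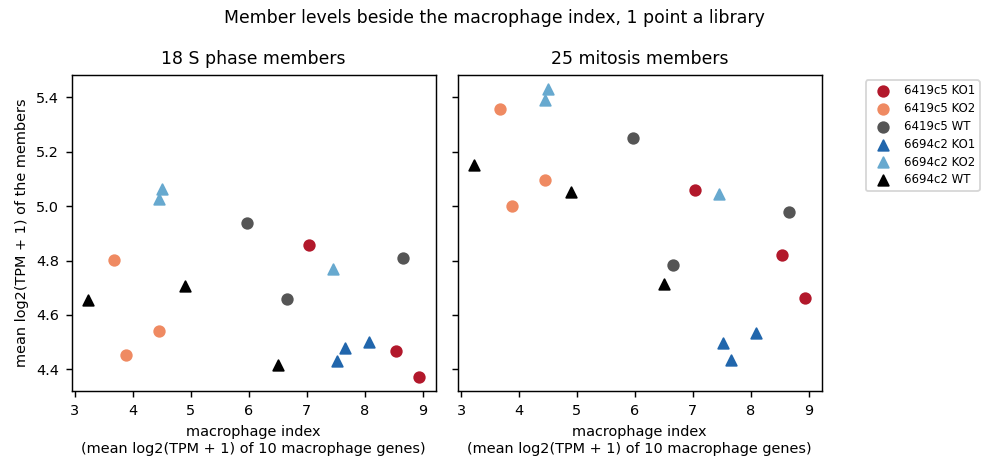
Mean log2(TPM + 1) of the 18 S phase members (left) and the 25 mitosis members (right) against the macrophage index, 1 point per library, circles for 6419c5 and triangles for 6694c2. The triangles of 6694c2 KO1 lie lowest in the mitosis panel, between 4.43 and 4.53, while KO2 replicate 3 of that line, at a similar index, lies at 5.04.

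Set against WT, mitosis genes were lower in KO1 of 6694c2, KO2 gave a count of higher members near that of genes at large, and the mean of the clones gave few calls. KO1 had 14 members lower than WT and 0 higher, where 7.01% of all genes tested were lower and 14.7% higher. They were 13 mitosis genes and Mybl2. Ccnb1 fell by 0.87 on the log2 scale in KO1 (limma adjusted p = 0.00418), Ube2c by 0.74 (adjusted p = 0.00356) and Foxm1 by 0.73 (adjusted p = 1.77e-04), and for all 3 no KO1 library reached a WT library. Aurka and Aurkb, the kinases of the spindle poles and of chromosome alignment, fell by 0.68 each, and Prc1 by 0.72. No licensing, nucleotide or fork gene passed in this comparison. Median-of-ratios scaling, which lowered the median of all genes to 0.02 from the 0.11 of the deposited scale, gave 18 lower members. Of all genes called, 67.7% were higher in KO1 on the deposited scale and 50.1% after that scaling. The macrophage covariate left 3 of the 14 and the fibroblast covariate left Foxm1 alone.

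KO2 of 6694c2 had 6 members higher than WT and 0 lower, where 10.6% of all genes tested were higher and 3.94% lower. Mcm4, a helicase subunit, had 48.01, 49.2 and 41.7 TPM in KO2 and 28.9, 21.7 and 31.8 TPM in WT, a rise of 0.75 log2 units (SE 0.19, adjusted p = 0.0146, limma). Tyms, thymidylate synthase, had 17.6, 19.03 and 15.99 TPM in KO2 and 12.8, 10.6 and 12.7 TPM in WT, a rise of 0.51 log2 units (SE 0.13, adjusted p = 0.0135, limma). Neither overlapped between the groups, whereas Cdk1 rose (0.66) with 1 KO2 library inside the range of WT. The others were Mcm7 (0.47), Mcm3 (0.37) and Cdc20, the activator of the anaphase promoting complex (0.36). The median of all genes was itself raised, at 0.18, beside 0.30 for the members. Under median-of-ratios scaling, with a median of all genes at 0.01, 2 members were called and the median of the members was 0.12; of all genes called, 72.9% were higher on the deposited scale and 40.7% after that scaling. The count also fell to 0 without KO2 replicate 2 (7 of 43 members at an unadjusted p under 0.05, against 23% of all genes), 2 without KO2 replicate 1 and 1 without WT replicate 2, and it was 16 with the macrophage covariate. Averaged over both clones, 2 members of 6694c2 were lower than WT, where 5.79% of all genes were lower and 14.7% higher: Foxm1 (-0.38, adjusted p = 0.00733) and Ccnb2 (-0.24, adjusted p = 0.0464 by limma). Ccnb2, cyclin B2, had 53.4, 43.2 and 44.9 TPM in KO1, 63.5, 61.4 and 59.7 TPM in KO2 and 69.4, 61.8 and 60.7 TPM in WT, so the mean rested on KO1. That count was 1 without KO1 replicate 2 or 3, KO2 replicate 1 or 2 or WT replicate 1 of 6694c2, and, through the shared spread, without KO1 replicate 3, KO2 replicate 1 or 3 or WT replicate 3 of 6419c5. It was 8 under median-of-ratios scaling, which moved the median of all genes to 0.02, against 0.15, and the share of higher calls among all genes called to 44.9%, against 71.7%.

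In 6419c5 the members differed from WT about as often as other genes did. KO2 had 5 of 43 members lower than WT and 3 higher, where 11% of all genes tested were lower and 7.97% higher. Those lower were the helicase subunits Mcm3, Mcm5 and Mcm6, the licensing factor Cdt1 and the kinase Plk1, and those higher were Kif20a, Bub1b and Racgap1, all genes of mitosis. Mcm3 (chr1:20802968-20820312, minus strand) had 29.5, 30.6 and 28.3 TPM in KO2 and 51.4, 57.6 and 54.3 TPM in WT, with 57.2, 43.8 and 46.3 TPM in KO1. The KO2 libraries lay far below all others of the line, and the change against WT was -0.86 log2 units (SE 0.12, adjusted p = 1.36e-04, limma). Mcm5 had 35.7, 24.5 and 27.8 TPM in KO1, 24.2, 25.95 and 25.1 TPM in KO2 and 35.9, 43.1 and 37.4 TPM in WT, a change in KO2 of -0.60 log2 units (SE 0.14, adjusted p = 0.00709, limma). Here both clones lay below WT in every library. Cdt1 had 41.8, 30.7 and 32.8 TPM in KO1, 26.98, 29.03 and 31.4 TPM in KO2 and 37.00, 42.6 and 38.9 TPM in WT (-0.43 for KO2 minus WT).

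Kif20a, the kinesin that carries the Aurora B complex to the central spindle, gave the largest rise. It had 40.2, 28.8 and 32.4 TPM in KO1, 65.5, 67.8 and 64.5 TPM in KO2 and 39.7, 35.3 and 31.6 TPM in WT of 6419c5. KO2 was far above both other groups, and it rose against WT by 0.88 log2 units (SE 0.13, adjusted p = 2.50e-04, limma). Bub1b, the checkpoint protein BubR1, had 36.6, 31.4 and 34.1 TPM in KO1, 41.5, 43.3 and 42.1 TPM in KO2 and 36.1, 31.1 and 28.6 TPM in WT (0.40 for KO2 minus WT). Racgap1 had 58.7, 49.2 and 57.7 TPM in KO1, 72.7, 83.95 and 74.7 TPM in KO2 and 63.5, 54.6 and 57.1 TPM in WT (0.40). For the pair the KO2 libraries exceeded every WT library. Macrophage markers were far lower in KO2, with an index of 3.87, 3.67 and 4.45 in KO2 and 5.97, 6.65 and 8.66 in WT. With that index as a covariate the calls of Bub1b, Racgap1, Plk1 and Cdt1 were lost and 4 of the 8 were kept, among them Mcm3, Mcm5 and Kif20a, whose calls were kept in each of 31 alternatives. The count of 8 became 4 without KO2 replicate 1, 5 without KO2 replicate 3, WT replicate 2 or WT replicate 3, and 5 without the 3 libraries set apart. Of all genes called 42.1% were higher in KO2, and 55.8% after quantile normalization.

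KO1 of 6419c5 had 0 members called against WT by limma, where 1.65% of all genes tested were lower and 3.14% higher; 4 of 43 had an unadjusted p under 0.05, against 16.1% of all genes. The median of the members was -0.18 beside 0.05 for all genes, and 3 members passed without KO1 replicate 1 and 1 without WT replicate 3. Of all genes called 65.6% were higher, and 48.2% after quantile normalization. The markers of cycling cells overlapped between the 3 groups of this line. Mki67 had 27.3, 22.8 and 29.3 TPM in KO1, 28.7, 31.8 and 27.5 TPM in KO2 and 38.8, 25.6 and 27.2 TPM in WT. Top2a had 53.00, 27.4 and 31.98 TPM in KO1, 35.8, 54.3 and 38.6 TPM in KO2 and 56.00, 31.7 and 39.99 TPM in WT. Cdk1 had 22.4, 18.7 and 19.4 TPM in KO1, 15.6, 20.5 and 19.8 TPM in KO2 and 21.6, 16.1 and 23.1 TPM in WT. None of the 3 passed in any comparison within 6419c5. Ccnb1 had 27.98, 20.97 and 22.5 TPM in KO1, 28.4, 40.6 and 31.6 TPM in KO2 and 33.8, 23.1 and 28.2 TPM in WT, with KO1 below KO2 in every library (-0.47, adjusted p = 0.0764 in limma). Among the S phase genes, Mcm2 had 50.99, 39.1 and 43.6 TPM in KO1, 42.8, 43.6 and 45.5 TPM in KO2 and 49.4, 56.4 and 50.2 TPM in WT. Pcna had 161, 115 and 109.9 TPM in KO1, 114, 166 and 135 TPM in KO2 and 191, 109.9 and 169.6 TPM in WT. The Pcna groups overlapped throughout, and for Mcm2 every KO2 library lay below WT without passing (-0.24, adjusted p = 0.155). Rrm2 had 64.5, 33.9 and 46.5 TPM in KO1, 63.5, 95.6 and 64.99 TPM in KO2 and 71.3, 45.5 and 73.9 TPM in WT. E2f1, a driver of S phase entry, had 13.1, 15.6 and 12.9 TPM in KO1, 12.4, 11.5 and 10.4 TPM in KO2 and 11.02, 12.7 and 12.9 TPM in WT. Rrm2 overlapped between the groups; E2f1 was higher in every KO1 than in every KO2 library, and WT overlapped with both. Neither passed against WT. Prc1 had 29.1, 21.9 and 27.9 TPM in KO1, 21.05, 32.9 and 22.8 TPM in KO2 and 32.4, 24.2 and 30.5 TPM in WT of 6419c5, and all 3 groups overlapped. Ube2c had 95.96, 74.2 and 84.8 TPM in KO1, 102, 112 and 109 TPM in KO2 and 105, 107 and 106 TPM in WT, with every KO1 library below both other groups.

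Between the clones of 6419c5, KO1 had 6 members lower and 1 higher than KO2, where 7.38% of all genes tested were lower and 18.9% higher. Kif20a differed by -0.96 log2 units (SE 0.13, adjusted p = 1.15e-04, limma), followed by Mcm7 (-0.48), Racgap1 (-0.48), Birc5, survivin (-0.44), Foxm1 (-0.41) and Cdc20 (-0.32). Foxm1 had 25.7, 20.7 and 24.1 TPM in KO1, 32.02, 32.7 and 29.5 TPM in KO2 and 33.4, 29.7 and 25.9 TPM in WT. For Foxm1 every KO1 library lay below every KO2 library. Mcm3 was the member higher in KO1, by 0.71 log2 units (SE 0.12, adjusted p = 6.12e-04, limma). Among the 25 mitosis genes 21 differences were below 0, with a median of -0.31 beside -0.00206 for the S phase genes and 0.05 for all genes. All 10 macrophage genes were higher in KO1 than in KO2, with an index of 7.03, 8.94 and 8.54 in its libraries, against 3.87, 3.67 and 4.45 in KO2. With that index as a covariate 3 members were called: Mcm3 and Mcm6 higher in KO1 and Kif20a lower, and the median of the 43 turned to 0.21. Median-of-ratios scaling raised the calls to 14, 13 of them lower in KO1, while of all genes called 72% were higher on the deposited scale and 58.9% after it. Averaged over both clones, 2 members fell against WT, Mcm3 (-0.51, adjusted p = 0.00496) and Mcm5 (-0.50, adjusted p = 0.0166), and Kif20a rose (0.40, adjusted p = 0.0367 by limma), where 3.4% of all genes were lower and 3.97% higher. The last call rested on KO2, as KO1 alone gave -0.08, and it was lost in 13 of 31 alternatives; the count of 3 was 1 without WT replicate 2.

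**Figure D4:**
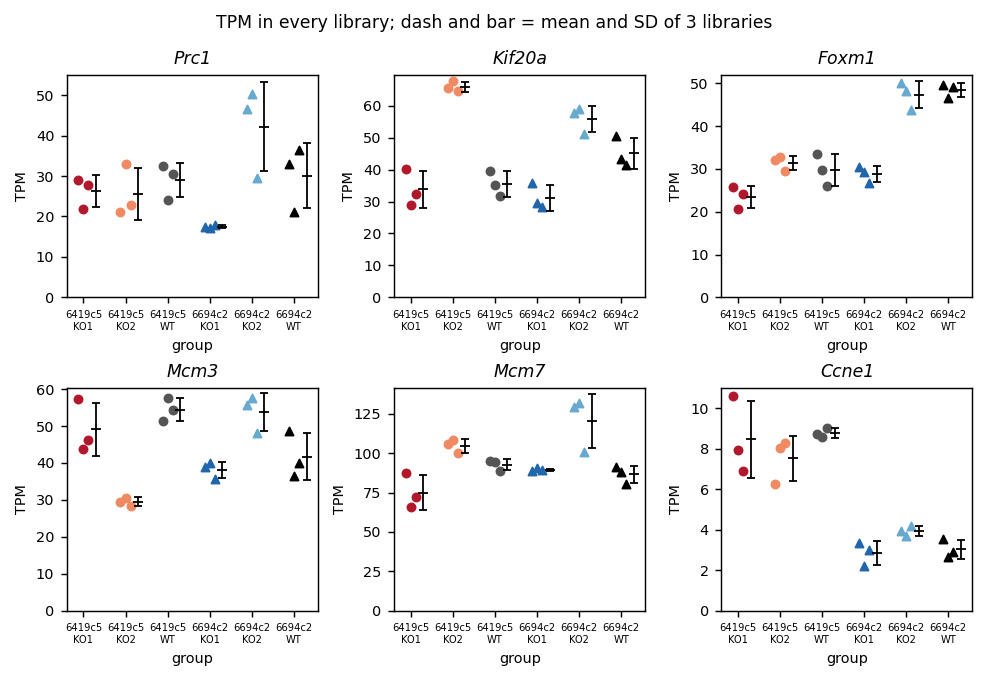
TPM of 6 members in every library by group, with the mean and SD of 3 libraries beside the points. Prc1 and Foxm1 are low in 6694c2 KO1, Kif20a is high and Mcm3 low in 6419c5 KO2, Mcm7 is highest in 6694c2 KO2, and Ccne1 separates the lines.

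The subunits of the MCM2 to MCM7 helicase, which work as a ring with 1 copy of each, did not keep a fixed proportion of transcripts across the groups. The shares of Mcm3 and Mcm7 stood apart in 6419c5 KO2, and that of Mcm4 differed between the lines and between the clones of 6694c2. Mcm3 made up 15.3% ± 0.192 of the summed TPM of Mcm2 to Mcm7 in KO1, 9.29% ± 0.346 in KO2 and 14.4% ± 1.10 in WT (SD, n = 3 each). Mcm7 made up 23.3% ± 0.314 in KO1, 32.9% ± 1.46 in KO2 and 24.5% ± 0.529 in WT. Mcm7 had 87.2, 65.7 and 71.9 TPM in KO1, 106, 108 and 99.8 TPM in KO2 and 94.9, 94.6 and 88.7 TPM in WT of this line. The log2 ratio of Mcm3 to Mcm7, each as TPM + 1, was -0.60 ± 0.0253 in KO1, -1.79 ± 0.0110 in KO2 and -0.76 ± 0.0972 in WT of 6419c5, and -1.21 ± 0.0744, -1.15 ± 0.0782 and -1.04 ± 0.182 in KO1, KO2 and WT of 6694c2. Shares of TPM within a library do not depend on how the library was scaled. Mcm4 made up 15.4% ± 0.985 in KO1, 15.8% ± 2.66 in KO2 and 14.4% ± 2.54 in WT of 6419c5. For 6694c2 its share was 7.52% ± 0.0697 in KO1, 9.78% ± 0.232 in KO2 and 7.30% ± 1.23 in WT. In 6694c2 the share of Mcm3 was 11.4% ± 0.436 in KO1, 11.4% ± 0.209 in KO2 and 11.1% ± 0.633 in WT, and Mcm7 had 88.9, 90.3 and 89.1 TPM in KO1, 129, 132 and 101 TPM in KO2 and 91.2, 87.9 and 80.4 TPM in WT.

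The balance of S phase and mitosis transcripts, the mean log2(TPM + 1) of the 18 S phase members minus that of the 25 mitosis members, moved apart from the overall level. It was -0.201, -0.291 and -0.353 in the libraries of 6419c5 KO1, -0.548, -0.557 and -0.554 in KO2 and -0.314, -0.125 and -0.169 in WT. KO2 was the tightest and lowest group. In 6694c2 it was -0.0301, -0.0661 and 0.0436 in KO1, -0.365, -0.367 and -0.273 in KO2 and -0.343, -0.296 and -0.495 in WT. There the KO1 libraries were above every other library of the series. A factor that scales all genes of a library largely cancels in this balance; no test was made of it.

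**Figure D5:**
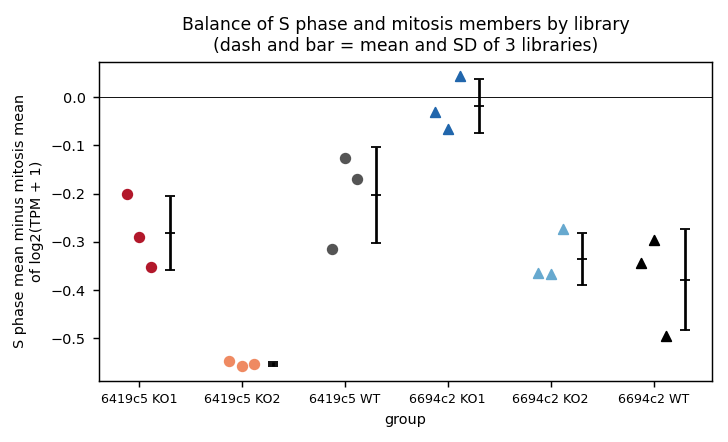
Balance of S phase and mitosis members by library and group, in units of log2(TPM + 1), with the mean and SD of 3 libraries. The 3 libraries of 6419c5 KO2 lie between -0.557 and -0.548, and those of 6694c2 KO1 between -0.0661 and 0.0436.

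The WT groups show how far the lines differ without a knockout. WT of 6419c5 had 5 of 43 members higher and 4 lower than WT of 6694c2, where 32.2% of all genes tested were higher and 14.1% lower. In both directions the share was smaller among the members than among all genes. Ccne1, cyclin E1, the partner of Cdk2 at S phase entry (chr7:38097984-38107534, minus strand), had 8.75, 8.57 and 9.05 TPM in 6419c5 WT and 3.54, 2.64 and 2.89 TPM in 6694c2 WT, a difference of 1.29 log2 units (SE 0.16, adjusted p = 1.27e-05, limma). It kept this order in the knockouts, with 10.6, 7.94 and 6.89 TPM in KO1 and 6.25, 8.03 and 8.30 TPM in KO2 of 6419c5, and 3.34, 2.20 and 2.98 TPM in KO1 and 3.91, 3.71 and 4.18 TPM in KO2 of 6694c2. Every 6419c5 library was above every 6694c2 library. Mcm4 had 66.8, 45.5 and 51.6 TPM in 6419c5 WT and 28.9, 21.7 and 31.8 TPM in 6694c2 WT, a difference of 0.96 log2 units (SE 0.19, adjusted p = 6.33e-04, limma). Tyms had 18.8, 17.8 and 18.9 TPM in 6419c5 WT and 12.8, 10.6 and 12.7 TPM in 6694c2 WT, again with no overlap. In the knockouts Mcm4 had 61.7, 44.3 and 43.7 TPM in KO1 and 40.3, 62.9 and 48.8 TPM in KO2 of 6419c5, and 25.96, 24.9 and 24.5 TPM in KO1 and 48.01, 49.2 and 41.7 TPM in KO2 of 6694c2, the KO2 libraries of 6694c2 lying within the range of 6419c5. Tyms had 18.96, 14.1 and 17.2 TPM in KO1 and 17.1, 22.5 and 17.4 TPM in KO2 of 6419c5, and 12.9, 12.3 and 13.6 TPM in KO1 and 17.6, 19.03 and 15.99 TPM in KO2 of 6694c2. Tyms (0.59), Plk1 (0.44) and Mcm3 (0.39) were higher in 6419c5 as well. Foxm1 was lower in 6419c5 WT, with a difference of -0.69 log2 units (SE 0.10, adjusted p = 5.83e-05, limma), as were Mcm2 (-0.42), Kif20a (-0.34) and Cdc20 (-0.32). The calls of Ccne1, Mcm4, Tyms, Foxm1 and Mcm2 were kept in each of 30 alternatives. The median of all genes was 0.22 beside 0.10 for the members, and under median-of-ratios scaling they were 0.05 and -0.09, with 4 members higher and 8 lower. Of all genes called, 69.5% were higher in 6419c5 on the deposited scale and 52.5% after that scaling. The macrophage index was 7.10 ± 1.40 in 6419c5 WT and 4.87 ± 1.64 in 6694c2 WT, and its part in these differences was not tested beyond the covariate, with which 16 members were called.

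A test of the knockout effect itself, averaged over the clones, found it to differ between the lines for 4 members, 2 with a higher effect in 6419c5 and 2 with a lower one, where 2.93% and 5.78% of all genes tested passed in those directions. For Mcm3, KO1 minus WT was -0.15 in 6419c5 and -0.11 in 6694c2, and KO2 minus WT was -0.86 in 6419c5 and 0.37 in 6694c2. Its mean effect was -0.51 in 6419c5 and 0.13 in 6694c2, a difference of effects of -0.63 log2 units (SE 0.14, adjusted p = 0.0129, limma). It was -0.30 in 6419c5 and 0.20 in 6694c2 for Cdt1, 0.17 in 6419c5 and -0.24 in 6694c2 for Ccnb2, and 0.25 in 6419c5 and -0.24 in 6694c2 for Bub1b. Mcm3 had 38.97, 39.9 and 35.8 TPM in KO1, 55.8, 57.5 and 48.1 TPM in KO2 and 48.8, 36.5 and 39.9 TPM in WT of 6694c2. There every KO1 library lay below every KO2 library and WT overlapped with both, whereas in 6419c5 the KO2 libraries were the lowest. Cdt1 had 38.9, 36.2 and 38.8 TPM in KO1, 38.7, 39.7 and 36.01 TPM in KO2 and 37.04, 33.4 and 28.6 TPM in WT of 6694c2, all overlapping. Ccnb2 had 63.5, 59.7 and 56.5 TPM in KO1, 64.3, 73.8 and 65.9 TPM in KO2 and 62.5, 53.8 and 54.2 TPM in WT of 6419c5. Bub1b had 20.3, 17.3 and 16.1 TPM in KO1, 33.3, 35.1 and 27.5 TPM in KO2 and 29.7, 25.97 and 29.5 TPM in WT of 6694c2, with KO1 alone below. The macrophage genes had a median effect of -1.09 in 6419c5 and 1.74 in 6694c2, and their part in these differences was not tested beyond the covariate. Of all genes called 33.6% had the higher effect in 6419c5, and 54.4% under median-of-ratios scaling, with which 6 members had the higher and 1 the lower effect. Of the 4 calls only that of Mcm3 was kept in each of 30 alternatives, and the count was 1 without the 3 libraries set apart. It was also 1 without KO2 replicate 2, WT replicate 2 or WT replicate 3 of 6419c5, or KO1 replicate 3 or KO2 replicate 1 of 6694c2. It was 2 without KO1 replicate 3, KO2 replicate 1 or KO2 replicate 3 of 6419c5, or KO1 replicate 2, KO2 replicate 2, WT replicate 1 or WT replicate 2 of 6694c2.

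Other genes of the same processes, from lists written with earlier results known, were mostly lower in KO1 than in KO2 of 6694c2. Of 50 further mitosis genes 28 were lower and 1 higher in KO1 than in KO2, where 5.27% of all genes tested were lower and 4.26% higher. The median of the 50 was -0.68. Those lower included Troap (-0.94), the cyclin F gene Ccnf (-0.90), anillin of the cleavage furrow, Anln (-0.89), and Gtse1 (-0.89). Pttg1, the securin gene, is the exception, with 33.3, 37.9 and 43.4 TPM in KO1, 23.3, 24.9 and 26.5 TPM in KO2 and 30.6, 24.4 and 16.5 TPM in WT, higher in KO1 than in KO2 by 0.59 log2 units (SE 0.17, adjusted p = 0.0460, limma). Of 33 further replication genes 14 were lower and 0 higher, among them the helicase activator Cdc45 (-0.96), Uhrf1 (-0.86) and the polymerase Pole (-0.70). Against WT, KO1 of 6694c2 had 15 of the 50 mitosis genes lower and 1 higher, where 7.01% of all genes were lower and 14.7% higher. KO2 had 5 of 50 mitosis and 12 of 33 replication genes higher, where 10.6% of all genes were higher. In 6419c5, KO1 had 5 of 50 mitosis genes lower than KO2, led by the phosphatases Cdc25c (-0.995) and Cdc25b (-0.59), which activate Cdk1, and 3 of 33 replication genes lower and 1 higher, where 7.38% of all genes were lower and 18.9% higher.

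Some inhibitors of the cell cycle ran against the members in 6694c2. Of 11 CDK inhibitor and arrest genes tested, 3 were higher in KO1 than in KO2 and 1 lower, where 4.26% of all genes were higher and 5.27% lower. Cdkn1a, the p21 gene, had 73.8, 46.6 and 50.8 TPM in KO1, 26.4, 24.6 and 27.5 TPM in KO2 and 37.4, 58.5 and 36.1 TPM in WT, a difference of KO1 from KO2 of 1.07 log2 units (SE 0.29, adjusted p = 0.0328, limma). Gadd45a, a stress gene of the p53 pathway, had 151, 272 and 332 TPM in KO1, 130.5, 133 and 145 TPM in KO2 and 226, 261 and 231 TPM in WT (0.81). Btg2 differed by 1.02, with 34.4, 16.4 and 18.5 TPM in KO1, 8.56, 9.48 and 13.3 TPM in KO2 and 15.2, 18.7 and 12.7 TPM in WT. Its KO1 replicates 2 and 3 lay within the range of WT. KO1 replicate 1, set apart above for its endothelial index, was the highest library of the line for Cdkn1a and Btg2. The calls of these genes without that library were not counted. For Cdkn1a and Gadd45a every KO2 library lay below every KO1 and WT library. Cdkn2c, the p18 gene, ran the other way with 37.1, 38.6 and 38.6 TPM in KO1, 55.8, 58.1 and 57.1 TPM in KO2 and 36.99, 29.8 and 33.1 TPM in WT (-0.57). In 6419c5, too, KO2 had the lower Cdkn1a and Btg2 (0.996 and 1.37 for KO1 minus KO2) but the higher Gadd45a (-1.07). Cdkn1a had 16.8, 32.6 and 33.2 TPM in KO1, 11.3, 13.6 and 13.4 TPM in KO2 and 20.4, 28.9 and 45.4 TPM in WT of 6419c5. The macrophage index of those libraries was 7.03, 8.94 and 8.54 in KO1, 3.87, 3.67 and 4.45 in KO2 and 5.97, 6.65 and 8.66 in WT. In both lines every KO1 library had a higher index than every KO2 library, and its part in these differences was not tested. Among 16 genes of G1 control 3 were lower and 0 higher in KO1 than in KO2 of 6694c2 by limma, beside the same 5.27% and 4.26% of all genes. Ccnd1, cyclin D1, differed by the most (-0.71), with 215, 211 and 185 TPM in KO1, 347, 357 and 299.8 TPM in KO2 and 281, 245 and 254 TPM in WT. Cdkn2a, the p16 and p19Arf gene, had 476 to 544 TPM in the 9 libraries of 6419c5, while in 6694c2 it had 0.462, 0.0999 and 0.272 TPM in KO1 and 0, 0 and 0.526 TPM in KO2 and was listed at 0 in all 3 WT libraries.

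The calls between the clones of 6694c2 were also counted by promoter letters. Of the 35 members with promoter sequence, 13 of 16 with TTTGAA were lower in KO1 than in KO2 of 6694c2, against 6 of 19 without it. The counts were 17 of 26 with CCAAT and 2 of 9 without it, and 5 of 7 with an E2F word and 14 of 28 without one. These counts overlap with the division into mitosis and S phase genes, since 15 of the 16 members with TTTGAA are mitosis genes. Of all genes tested 5.27% were lower in KO1. Calls by promoter letters were counted for members alone, so the share among all genes with each motif is not known.

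Within each group 1 library was the highest for most members, a larger share than that of all genes in the same library, though by little in 6694c2 KO1. Replicate 1 of 6419c5 KO1 was the highest of its 3 for 40 of 43 members (45.7% of all genes tested), replicate 2 of 6419c5 KO2 for 36 (63.9%) and replicate 1 of 6419c5 WT for 29 (47.5%). In 6694c2 it was replicate 1 of KO1 for 23 members (48.8%), replicate 2 of KO2 for 33 (41.8%) and replicate 1 of WT for 24 (26.4%). In the 3 groups of 6419c5 that library also had the lowest macrophage index of its group, with 7.03, 8.94 and 8.54 in replicates 1, 2 and 3 of KO1, 3.87, 3.67 and 4.45 in KO2 and 5.97, 6.65 and 8.66 in WT. In the 3 groups of 6694c2 it did not, with 8.08, 7.52 and 7.66 in KO1, 4.45, 4.49 and 7.45 in KO2 and 4.90, 6.498 and 3.23 in WT. The part of macrophages was not tested. The pooled SD within groups was largest for Ccne2 (0.68 on the log2 scale), the checkpoint kinase Bub1 (0.56) and Chek1 (0.50), and smallest for Ccnb2 (0.11). Its median over the members was 0.19, beside 0.21 for all genes tested. Across the 43 genes, which share their libraries, the SD had a Spearman rho of 0.39 with the length of the longest coding transcript and of -0.45 with the mean level, given as a description.

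Of the 43 members 30 were called in at least 1 of the 10 comparisons and 13 in none, 7 of S phase and 6 of mitosis. This count was not made for all genes tested, of which 32.2% were higher and 14.1% lower between the WT groups alone. The uncalled mitosis genes were Ccna2, Bub1, Cenpe, Cenpf, Kif11 and Nusap1, and the S phase genes were Pcna, Rrm1, Rrm2, Ccne2, E2f1, Gins2 and Chek1. Over the 18 libraries Kif11 spanned 7.63 to 29.1 TPM, Bub1 3.96 to 15.9 TPM and Nusap1, a microtubule binder of the spindle, 4.74 to 21.02 TPM. Ccna2 spanned 32.3 to 83.6 TPM and Rrm1, the large subunit of ribonucleotide reductase, 29.2 to 54.1 TPM. E2f1 spanned 10.4 to 18.6 TPM and Gins2, a part of the active helicase, 25.2 to 44.1 TPM. Several differed widely between groups and as widely within them, so that a missed threshold does not show a like level.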

How the data were processed

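RNA was sequenced from 18 libraries of sorted tumor cells, and the deposited table gives TPM per gene, scaled by the authors to the same total in each library. Salmon and the build mm10 are named in the submitters' processing notes, while the version, the annotation and how transcripts were summed to genes are not given in the sources used here. The name of the deposited table mentions a batch without describing one, so whether values were adjusted is unknown. Read numbers cannot be had from TPM, which leaves the depth and its precision unknown.

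The values were analysed as log2(TPM + 1) over 13422 of 24493 genes, those whose mean reached 1 TPM. One limma fit (limma 3.58.1, R 4.3.3, with a mean-variance trend) of the 6 groups, with 12 residual degrees of freedom, gave all comparisons, with p-values adjusted by Benjamini and Hochberg over all genes tested. The knockout effect of a line is the mean of both clones minus WT. Comparisons within a line share libraries, the WT or clone libraries named in each. The members and gene lists were chosen with earlier results of these data known. Values in every library are given for 10 genes named beforehand and for up to 3 members with the largest rise and fall among those called in each comparison, and other members by fold change; further values (Prc1, Racgap1, Kif20a, Mcm7, Pttg1 and the inhibitor genes) were added after seeing them. Up to 4 called genes per other list are named. Marker indices are means of log2(TPM + 1) over marker lists. Promoter sequences are from RefSeq on GRCm38.p6, gene positions from GENCODE M21 on GRCm38. Alternatives covered the pseudocount, the filter, scaling, covariates, a replicate block, the trend, fits of 1 line and leaving out libraries.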

Additional observations from a re-analysis of the deposited data

Results flagged for a closer look

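The knockout effect, averaged over both clones, differed between the lines by a limma test of the difference itself for 4 members. The effect in 6419c5 minus that in 6694c2 was -0.63 for Mcm3, -0.51 for Cdt1, 0.41 for Ccnb2 and 0.49 for Bub1b, on the log2(TPM + 1) scale. The call of Mcm3 was kept in 30 of 30 alternatives, those of Bub1b and Ccnb2 in 13 of 30 each and that of Cdt1 in 11 of 30. The Mcm3 difference rested on KO2: KO2 minus WT was -0.86 in 6419c5 and 0.37 in 6694c2, and KO1 minus WT was -0.15 in 6419c5 and -0.11 in 6694c2. The macrophage genes differed in the same contrast by a median of -2.81, and their part in these results was not tested beyond the covariate.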

How the results depend on the processing

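Of 77 calls of a member in a comparison, 13 were kept in every alternative run, 64 were lost in at least 1 and 0 reversed; the cause of each loss was not tested. Median-of-ratios scaling gave 8 called members for the mean of the 6694c2 clones against WT (2 as deposited), 1 for KO1 against WT in 6419c5 (0), 2 for KO2 against WT in 6694c2 (6, median 0.12), 14 for KO1 against KO2 in 6419c5 (7) and 7 for the effect between lines (4), and a median of -0.086 between the WT groups. Quantile normalization gave 7, 1, 2 and 14 for the first 4 of these, medians of -0.51 for KO1 against WT in 6694c2, -0.095 between the WT groups and 0.093 for the effect between lines, and a balance of -0.54 in 6419c5 KO2. Removing the 20 most abundant genes gave 7 for the mean of the 6694c2 clones and 14 for KO1 against KO2 in 6419c5.

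With the macrophage covariate the counts were 6 for the mean of the 6694c2 clones, 3 for KO1 and 16 for KO2 against WT in 6694c2, 3 and 11 for KO1 against KO2 in 6419c5 and 6694c2, 16 between the WT groups and 7 for the effect between lines. The medians were then -0.33 for KO2 against WT in 6419c5, -0.048 for KO1 against WT in 6694c2, 0.21 and -0.40 for KO1 against KO2 in 6419c5 and 6694c2, 0.35 between the WT groups and -0.48 for the effect between lines. With the fibroblast covariate, added after seeing the data, the counts were 1 for the mean of the 6694c2 clones, 1 for KO1 against WT in 6694c2, 3 and 0 for KO1 against KO2 in 6419c5 and 6694c2 and 1 for the effect between lines. In the 0 case 21 of 43 members and 9.06% of all genes had an unadjusted p under 0.05 in limma. Without the 3 libraries that stand apart, the counts were 1 for KO1 and 5 for KO2 against WT in 6419c5 and 1 for the effect between lines. A fit without the trend gave 1 for the mean of the 6694c2 clones, and a fit of 1 line gave 1 there and 3 for KO2 against WT in 6694c2.

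Same-numbered libraries within a line did not deviate together: 5 of 18 pairs correlated above 0.1 (-0.378 to 0.481), against 17 of 36 pairs of other numbers (-0.385 to 0.473). The numbers were therefore not taken as pairs. The replicate block gave 3 called members for KO2 against WT in 6694c2 (6 without it), 21 for KO1 against KO2 (24) and 11 for KO1 against WT (14) in that line, 6 between the WT groups (9) and 3 for the effect between lines (4).

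Leaving out each library in turn gave these ranges of called members, with the range of the median in parentheses: 1 to 4 (-0.22 to 0.013) for the mean of the 6419c5 clones against WT, 1 to 3 (-0.075 to 0.075) for the mean of the 6694c2 clones against WT, 0 to 3 (-0.30 to -0.059) for KO1 against WT in 6419c5, 4 to 9 (-0.15 to 0.13) for KO2 against WT in 6419c5, 10 to 16 (-0.48 to -0.28) for KO1 against WT in 6694c2. For the other comparisons they were 0 to 8 (0.22 to 0.38) for KO2 against WT in 6694c2, 5 to 10 (-0.28 to -0.066) for KO1 against KO2 in 6419c5, 12 to 33 (-0.82 to -0.63) for KO1 against KO2 in 6694c2, 7 to 11 (-0.022 to 0.17) for the WT groups and 1 to 5 (-0.23 to 0.026) for the effect between lines. The balance of S phase and mitosis genes ranged over -0.32 to -0.25 in 6419c5 KO1, -0.56 to -0.55 in 6419c5 KO2, -0.24 to -0.15 in 6419c5 WT, -0.048 to 0.0068 in 6694c2 KO1, -0.37 to -0.32 in 6694c2 KO2 and -0.42 to -0.32 in 6694c2 WT.

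Pseudocounts of 0.1 and 5 moved the balance of S phase and mitosis genes to -0.36 and -0.15 in 6419c5 KO1, -0.62 and -0.41 in 6419c5 KO2, and -0.075 and 0.086 in 6694c2 KO1. A pseudocount of 5 gave -0.21 in 6694c2 KO2 and -0.24 in 6694c2 WT.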
